A study of Mus musculus with 9 samples.

Results

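Mast cells and basophils are followed here through 8 genes in mouse spleen: the granule proteases Cpa3, Mcpt1, Mcpt4, Mcpt8 and Prss34, the receptor tyrosine kinase Kit, and the IgE receptor chains Fcer1a and Ms4a2. The members are the genes of this set whose accession is carried by a non-control probe of the array, and all 8 were found among 32451 genes or accessions, each with 1 probe. Of these, 7 passed the filter on dim signals and were among the 26325 genes tested. Ms4a2 did not pass it. The data are 9 Agilent 1-colour arrays of total RNA from the spleens of female BALB/c mice, 1 array per sample and 3 samples per group. One group had Graves' disease and a normal dietary selenium supply (normal Se GD), another had Graves' disease and a low supply (low Se GD), and the last had no disease and a low supply (low Se non-GD). Graves' disease is an autoimmune overactivity of the thyroid driven by antibodies to the thyrotropin receptor. No group joined a normal supply to the absence of disease. Low Se GD set against low Se non-GD is called the disease comparison below, normal Se GD set against low Se GD the selenium comparison, and normal Se GD set against low Se non-GD the combined comparison, in which disease and supply differ together. The age of the mice, the make-up of the diets, the origin of the disease model and whether each sample was a separate animal are not stated in the labels. Every p-value therefore measures the spread between these samples, and that spread may be technical.

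Mast cells live in tissues and basophils circulate in blood, and both carry the high-affinity IgE receptor, made of an alpha chain that holds IgE (Fcer1a), a beta chain that strengthens the signal (Ms4a2) and a gamma chain shared with other Fc receptors (Fcer1g). Cross-linking of this receptor empties granules full of histamine, proteoglycan and proteases. In mice, granule proteases mark subtypes: the chymases Mcpt1 and Mcpt2 belong to mucosal mast cells, Mcpt4 to connective tissue mast cells, and Mcpt8 and Prss34 to basophils. Cpa3, a carboxypeptidase, is stored in mast cells and is also made by basophils and their progenitors. Kit is the receptor for stem cell factor, on which mast cells depend, and it is also carried by blood progenitors, of which the mouse spleen holds many.

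The stretch of 250 bases before the transcription start is shown for the 5 proteases, which held most of the called differences among the 8 members. Of these proteases 3, Mcpt1, Mcpt4 and Mcpt8, lie in the chymase gene cluster of chromosome 14. The sequences are those of RefSeq's annotation of GRCm38.p6, given 5′ to 3′ in the direction of the gene. Capitals mark matches to the GATA motif on either strand, which GATA factors such as Gata2 can bind. The letters searched were AGATAA and also TGATAA, and the variants of each that end in G, which were AGATAG for one and TGATAG for the other.
Mcpt1 (chr14:56017714-56017963, plus strand): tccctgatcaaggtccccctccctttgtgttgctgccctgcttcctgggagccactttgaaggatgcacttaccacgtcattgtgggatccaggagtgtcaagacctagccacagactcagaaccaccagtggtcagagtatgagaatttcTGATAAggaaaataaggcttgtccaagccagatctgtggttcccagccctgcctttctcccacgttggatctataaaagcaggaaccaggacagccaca
Mcpt4 (chr14:56062311-56062560, minus strand): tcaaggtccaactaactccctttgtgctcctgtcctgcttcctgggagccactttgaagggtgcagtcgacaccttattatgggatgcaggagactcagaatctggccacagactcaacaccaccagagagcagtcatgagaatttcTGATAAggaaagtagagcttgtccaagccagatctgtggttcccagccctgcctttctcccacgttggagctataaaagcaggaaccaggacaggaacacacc
Cpa3 (chr3:20242182-20242431, minus strand): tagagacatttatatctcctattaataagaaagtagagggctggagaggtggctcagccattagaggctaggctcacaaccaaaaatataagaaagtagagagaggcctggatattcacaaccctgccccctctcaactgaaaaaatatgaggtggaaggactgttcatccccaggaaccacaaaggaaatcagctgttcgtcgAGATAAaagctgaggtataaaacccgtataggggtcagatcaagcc
Prss34 (chr17:25298144-25298393, plus strand): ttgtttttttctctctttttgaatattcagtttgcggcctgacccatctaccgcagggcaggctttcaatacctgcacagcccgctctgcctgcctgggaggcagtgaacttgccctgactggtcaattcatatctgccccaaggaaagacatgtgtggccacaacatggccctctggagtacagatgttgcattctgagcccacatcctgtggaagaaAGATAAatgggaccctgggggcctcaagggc
Mcpt8 (chr14:56085198-56085447, minus strand): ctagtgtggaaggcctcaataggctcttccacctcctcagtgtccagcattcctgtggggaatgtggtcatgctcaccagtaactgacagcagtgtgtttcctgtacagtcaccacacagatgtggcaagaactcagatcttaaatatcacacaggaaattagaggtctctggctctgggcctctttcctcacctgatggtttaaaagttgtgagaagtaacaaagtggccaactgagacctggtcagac

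A GATA match lay in the window of 6 of the 8 members, and 26.5% of all 32851 windows of this length hold one. In Mcpt1 and Mcpt4 the match was TGATAA, 99 and 103 bases before the start, in windows that were 81.5% identical over 254 aligned positions. In Cpa3 and Prss34 it was AGATAA, 46 and 31 bases before the start. Fcer1a and Ms4a2 had a match as well, and Mcpt8 and Kit had none. A TATAAA match, as found at many strongly regulated promoters, was present in 4 of the 8 members (Cpa3, Mcpt1, Mcpt4 and Fcer1a) and in 12.4% of all windows. It lay 31, 28 and 32 bases before the start in Cpa3, Mcpt1 and Mcpt4, but 125 bases before it in Fcer1a. Cpa3 had another on the opposite strand, 242 bases before the start. These matches describe letters in a window and show no binding.

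Signals are given as log2 of the processed spot signal minus the 75th percentile of the same array, so that a value of 0 is a gene as bright as that percentile and a difference of 1 is a doubling. A probe was counted as measured on an array where the scanner software had marked it well above background. Such spots made up 72.6% to 82.6% of the non-control spots on 8 arrays. Normal Se GD replicate 3 had 58.4% and so fewer measured dim genes. Slides were inferred from the scan date in the file headers, arrays that share a date being taken as 1 slide. On this reading slide 1 held low Se GD replicate 1 and the 3 low Se non-GD arrays. Slide 2 held normal Se GD replicates 1 and 2 and low Se GD replicates 2 and 3, and slide 3 held normal Se GD replicate 3 alone. The added control RNA read by the E1A spot a107 ranged over 0.87 to 2.37 in normal Se GD, 1.01 to 2.51 in low Se GD, and 4.72 to 5.85 in low Se non-GD. Every low Se non-GD array thus lay above every diseased one, also within slide 1, where low Se GD replicate 1 read 2.51. Disease state and this difference in the control RNA cannot be told apart, and its part in the members' differences was not tested. Over 22351 probes measured on all 9 arrays, low Se GD replicate 2 had the middle value of its group at 69.1% of the probes, and low Se non-GD replicate 3 that of its group at 77.3%. Whether these arrays are independent samples was not tested. Results are therefore also given without single arrays and within slides. In whole spleen RNA, fewer cells of a type and less RNA per cell cannot be told apart, and the level of one probe is not set against that of another.

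**Figure D1:**
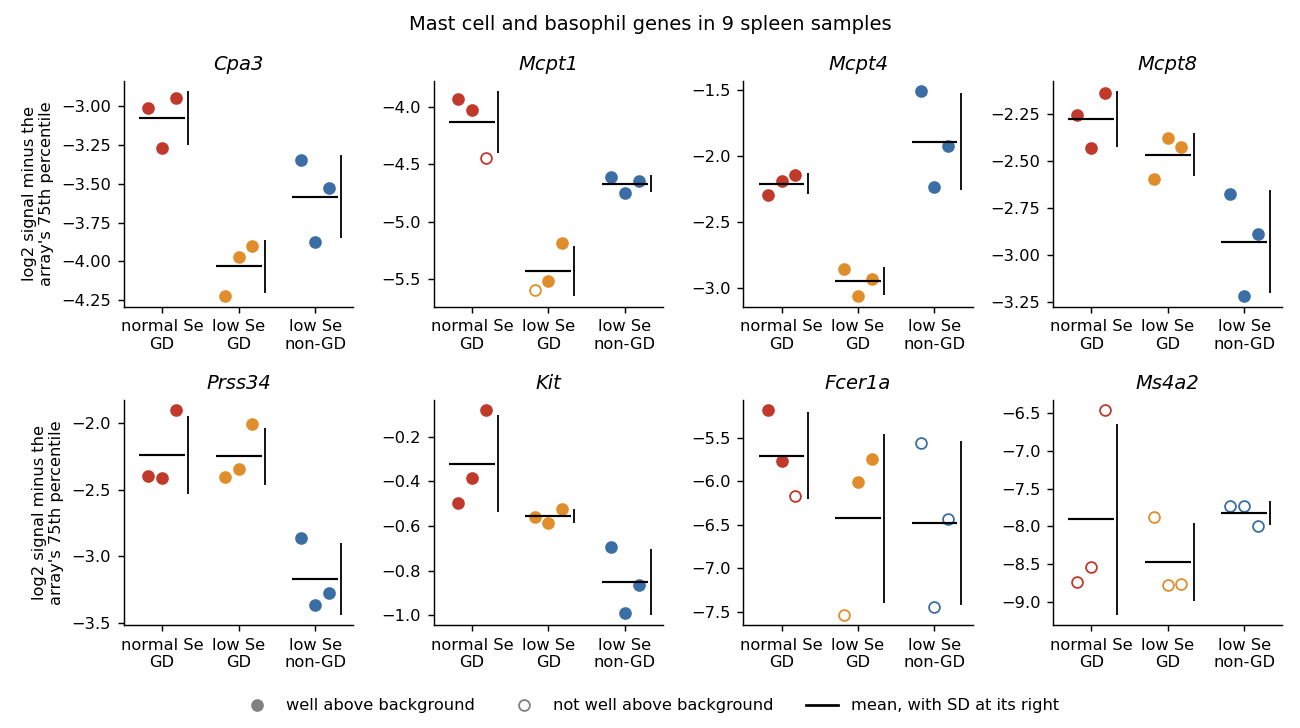
Each panel shows 1 member gene, with 1 point per spleen sample and its log2 signal, less the 75th percentile of the array, on a vertical axis that differs between panels. Filled points were well above background and open points were not, horizontal lines are group means and vertical lines to their right show the SD (n = 3). The 3 low Se GD points are the lowest for Cpa3, Mcpt1 and Mcpt4, while the 3 low Se non-GD points are the lowest for Mcpt8, Prss34 and Kit.

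Cpa3, Mcpt1 and Mcpt4 were lowest in low Se GD. Cpa3 stood at -3.01, -3.27 and -2.95 in normal Se GD, at -4.22, -3.97 and -3.90 in low Se GD, and at -3.35, -3.87 and -3.53 in low Se non-GD, and was well above background on all 9 arrays. Its 3 groups did not overlap, although low Se GD replicate 3 and low Se non-GD replicate 2 were almost level. Mcpt1, the mucosal chymase, stood at -3.93, -4.03 and -4.44 in normal Se GD, at -5.59, -5.51 and -5.18 in low Se GD, and at -4.61, -4.75 and -4.65 in low Se non-GD. Its 3 groups kept the same order as for Cpa3 without overlap, but the signal was not well above background on normal Se GD replicate 3 and low Se GD replicate 1, the lowest arrays of their groups. Mcpt4, the connective tissue chymase, stood at -2.30, -2.19 and -2.14 in normal Se GD, at -2.85, -3.06 and -2.93 in low Se GD, and at -1.51, -2.24 and -1.93 in low Se non-GD, all of them well above background. Here the low Se GD arrays lay below all others, and the normal Se GD values overlapped with those of low Se non-GD, whose spread was wide.

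The basophil proteases had another order, with low Se non-GD lowest. Mcpt8 stood at -2.25, -2.43 and -2.14 in normal Se GD, at -2.59, -2.38 and -2.42 in low Se GD, and at -2.68, -3.22 and -2.89 in low Se non-GD. Both diseased groups overlapped with each other and lay above the low Se non-GD values. Prss34, a tryptase-like protease of basophils, stood at -2.40, -2.41 and -1.90 in normal Se GD, at -2.40, -2.34 and -2.0 in low Se GD, and at -2.86, -3.37 and -3.28 in low Se non-GD. The diseased groups were close to one another and stood apart from low Se non-GD. Both probes were well above background on all 9 arrays.

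Of the receptors, Kit was measured on all 9 arrays and the IgE receptor chains were at or near background. Kit stood at -0.50, -0.39 and -0.08 in normal Se GD, at -0.56, -0.59 and -0.52 in low Se GD, and at -0.70, -0.99 and -0.87 in low Se non-GD. Its groups did not overlap, though normal Se GD replicate 1 and low Se GD replicate 3 differed by only 0.02. Fcer1a stood at -5.17, -5.77 and -6.17 in normal Se GD, at -7.54, -6.01 and -5.74 in low Se GD, and at -5.56, -7.45 and -6.44 in low Se non-GD. It was well above background on normal Se GD replicates 1 and 2 and low Se GD replicates 2 and 3 and on no low Se non-GD array, and the groups overlapped throughout. Ms4a2 was well above background on none of the 9 arrays, with values of -8.74, -8.53 and -6.45 in normal Se GD, -7.87, -8.78 and -8.76 in low Se GD, and -7.72, -7.74 and -8.00 in low Se non-GD. The alpha and beta chains that define both cell types were thus hardly measured, so the set rests on its proteases, which were well above background on at least 7 of 9 arrays, and on Kit.

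The disease comparison asked what differs with Graves' disease at a low selenium supply, a contrast that the added control RNA follows too. Prss34 was higher and the mast cell chymases Mcpt1 and Mcpt4 were lower in low Se GD than in low Se non-GD. Mcpt4 averaged -2.95 ± 0.11 in low Se GD and -1.89 ± 0.36 in low Se non-GD (SD, n = 3 each), a log2 difference of -1.06 (SE 0.18, limma, adjusted p = 0.00515). Mcpt1 averaged -5.43 ± 0.22 in low Se GD, with 2 of 3 arrays well above background, and -4.67 ± 0.07 in low Se non-GD, a difference of -0.76 (SE 0.16, adjusted p = 0.0135). Prss34 averaged -2.25 ± 0.22 in low Se GD and -3.17 ± 0.27 in low Se non-GD, a difference of 0.92 (SE 0.20, adjusted p = 0.0141). Each of these differences was larger than the spread between replicates, and the groups did not overlap.

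The other members did not pass the adjusted threshold of 0.05 in that comparison. Mcpt8 differed by 0.46 (SE 0.16, adjusted p = 0.0659), Cpa3 by -0.45 (SE 0.17, adjusted p = 0.0878) and Kit by 0.29 (SE 0.13, adjusted p = 0.148), all 3 without overlap between the groups. Fcer1a had an adjusted p of 0.959, and no fold is given for it because no low Se non-GD array measured it. In all, 1 of 7 tested members was called higher, where 12.8% of all genes were, and 2 of 7 were called lower, where 12.2% of all genes were. In either direction the share of all genes was 24.9%. Without overlap, 3 members were higher and 3 lower, beside 29.5% and 23.4% of all genes. Over the 6 members measured in both groups the median difference was -0.08, and that of all genes tested 0.08. All genes tested were not limited to those measured in both groups, so the medians are of unlike sets and their signs are not compared. With normexp background correction the calls over all genes divided into 2248 higher and 3254 lower, against 3357 higher and 3199 lower as reported.

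Single arrays decided several of these calls. Prss34 lost its call without low Se GD replicate 3 (0.80, adjusted p = 0.0501). Among the low Se non-GD arrays, it lost it without replicate 2 (0.82, adjusted p = 0.0519) or replicate 3 (0.86, adjusted p = 0.0588). Mcpt1 lost it when low Se GD replicate 2 (-0.72, adjusted p = 0.0594) was left out, and likewise low Se non-GD replicate 3 (-0.75, adjusted p = 0.0543). Mcpt4 kept it without any single array. Calls were gained by Mcpt8 without normal Se GD replicate 3 (0.46, adjusted p = 0.0442) or replicate 1 of low Se non-GD (0.59, adjusted p = 0.0341), by Kit without normal Se GD replicate 3 (0.29, adjusted p = 0.0389) and by Cpa3 when replicate 2 of low Se non-GD was left out (-0.60, adjusted p = 0.0449). Within slide 1, with 1 low Se GD array against 3 low Se non-GD arrays and its spread taken to equal theirs, the differences were -0.96 for Mcpt4 (adjusted p = 0.163), -0.92 for Mcpt1 (adjusted p = 0.0528) and 0.76 for Prss34 (adjusted p = 0.152). With the slide as a block, which rests on the same 1 low Se GD array against 3 and takes the spread from all slides, the adjusted p was 0.0467 for Mcpt4, 0.0121 for Mcpt1 and 0.0577 for Prss34. With normexp background correction Prss34 differed by 0.41 (adjusted p = 0.107) and Mcpt1 by -0.63 (adjusted p = 0.0564).

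**Figure D2:**
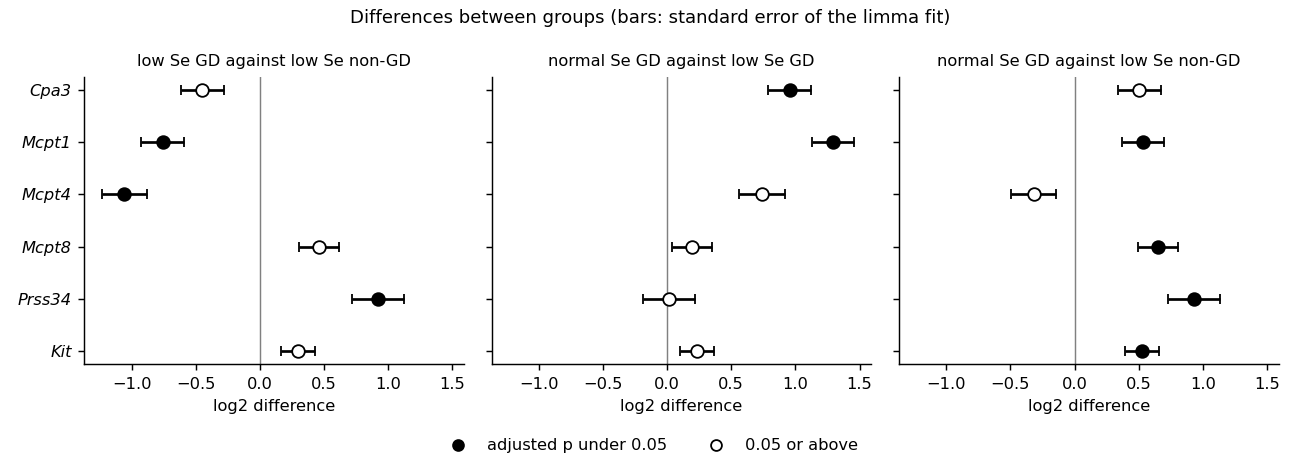
Log2 differences between group means for 6 members in the 3 comparisons, with bars for the standard error of the limma fit and filled circles where the adjusted p was under 0.05. Mcpt1 and Mcpt4 lie below 0 in the disease comparison (left), and Cpa3, Mcpt1 and Mcpt4 lie above 0 in the selenium comparison (middle), where Prss34 lies at 0.01.

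The selenium comparison addressed the dietary supply within diseased mice. Cpa3 and Mcpt1 rose in the mice with the normal supply. Mcpt1 averaged -4.14 ± 0.27 in normal Se GD and -5.43 ± 0.22 in low Se GD, each with 2 of 3 arrays well above background, a difference of 1.29 (SE 0.16, adjusted p = 0.0369) or 2.45-fold. Cpa3 averaged -3.08 ± 0.17 in normal Se GD and -4.03 ± 0.17 in low Se GD, a difference of 0.96 (SE 0.17, adjusted p = 0.0451) or 1.94-fold. Mcpt4 averaged -2.21 ± 0.08 in normal Se GD and -2.95 ± 0.11 in low Se GD, a difference of 0.74 (SE 0.18) that did not pass, at an adjusted p of 0.0810, although all 3 arrays of normal Se GD lay above those of low Se GD.

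The basophil proteases and the receptors did not pass in that comparison. Prss34 averaged -2.24 ± 0.29 in normal Se GD and -2.25 ± 0.22 in low Se GD, and the interval of its difference ran from -0.45 to 0.48. Its sign turned under other settings, for instance to -0.23 within slide 2 and -0.0804 after quantile normalization. Mcpt8 differed by 0.19 (interval -0.17 to 0.55, adjusted p = 0.552), Kit by 0.23 (interval -0.07 to 0.54, adjusted p = 0.380) and Fcer1a by 0.72 (interval -0.67 to 2.12, adjusted p = 0.558). In all, 2 of 7 tested members were called higher, where 0.976% of all genes were, and 0 were called lower, where 0.292% of all genes were. In either direction the share of all genes was 1.27%. At an unadjusted p under 0.05, limma passed 3 members as higher and 0 as lower. No share of all genes at this unadjusted threshold is given here or below, so such counts stand without a baseline. They are not to be set against the adjusted shares. Without overlap, 4 members were higher and 0 lower, beside 17.9% and 11.4% of all genes. The members' median difference was 0.72, which is the value of the dim Fcer1a, and that of all genes tested 0.00.

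The sizes of the Cpa3 and Mcpt1 differences held better than their calls. Over all alternatives the difference lay between 0.64 and 1.05 for Cpa3 and between 0.68 and 1.45 for Mcpt1, but the call was lost in 15 of 19 alternatives for Cpa3 and in 13 of 18 for Mcpt1. Leaving out normal Se GD replicate 3 kept both calls (Cpa3 0.89, adjusted p = 0.0483, and Mcpt1 1.45, adjusted p = 0.0191), and leaving out any other single array lost both, with adjusted p-values of 0.0553 to 0.213. In these 8 fits at most 1 of all genes was called in either direction. Within slide 2, where normal Se GD replicates 1 and 2 stood against low Se GD replicates 2 and 3, the differences were 0.80 for Cpa3 (adjusted p = 0.0430), 1.36 for Mcpt1 (adjusted p = 0.0358) and 0.75 for Mcpt4 (adjusted p = 0.0379). With the slide as a block Mcpt1 differed by 1.36 (adjusted p = 0.0278) and Cpa3 by 0.80 (adjusted p = 0.0625). With every probe of the array tested as its own feature and no filter on dim ones, 0 of the 8 member probes were called, Mcpt1 having an adjusted p of 0.0542 and Cpa3 of 0.0655.

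**Figure D3:**
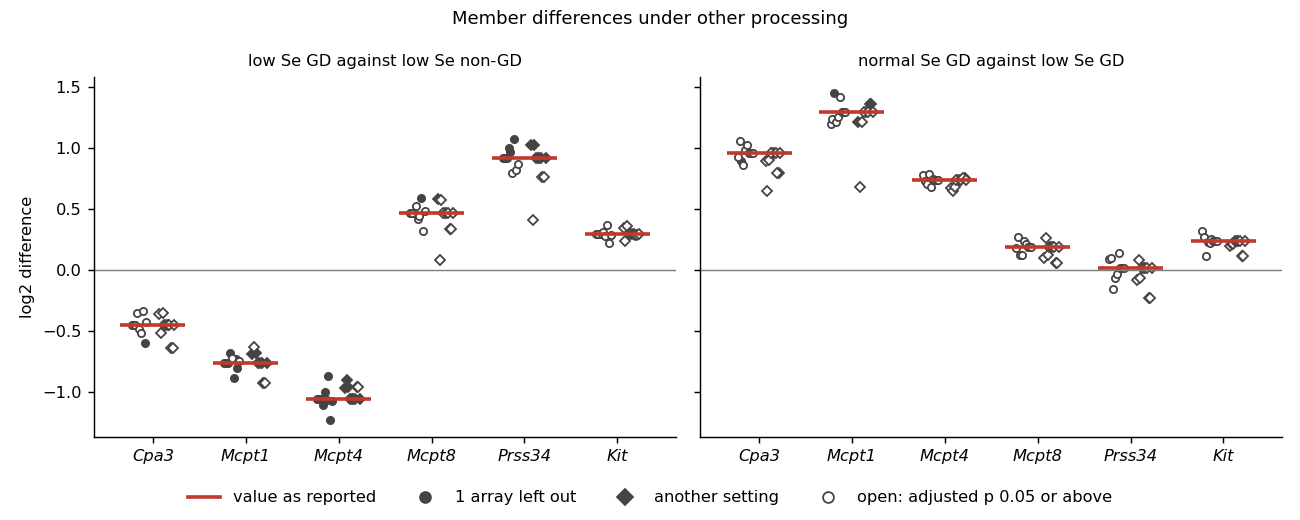
Log2 differences of 6 members in the disease comparison (left) and the selenium comparison (right) under other processing: the red line is the value as reported, circles leave out 1 array and diamonds use another setting, and open symbols have an adjusted p of 0.05 or above. Cpa3, Mcpt1 and Mcpt4 keep their sign in both comparisons throughout, and Prss34 lies on both sides of 0 in the selenium comparison, between -0.23 and 0.14.

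In the combined comparison disease and supply cannot be told apart. Prss34, Mcpt8, Kit and Mcpt1 rose. Prss34 averaged -2.24 ± 0.29 in normal Se GD and -3.17 ± 0.27 in low Se non-GD, a difference of 0.93 (SE 0.20, adjusted p = 0.0105). Mcpt8 averaged -2.27 ± 0.15 in normal Se GD and -2.93 ± 0.27 in low Se non-GD, a difference of 0.65 (SE 0.16, adjusted p = 0.0154). Kit averaged -0.32 ± 0.22 in normal Se GD and -0.85 ± 0.15 in low Se non-GD, a difference of 0.53 (SE 0.13, adjusted p = 0.0186). Mcpt1 differed by 0.53 (SE 0.16, adjusted p = 0.0407), Cpa3 by 0.51 (SE 0.17, adjusted p = 0.0517) and Mcpt4 by -0.32 (SE 0.18, adjusted p = 0.210).

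In that comparison 4 of 7 tested members were called higher, where 18.9% of all genes were, and 0 lower, where 13.4% of all genes were. In either direction the share of all genes was 32.3%. At an unadjusted p under 0.05 limma passed 5 as higher and 0 as lower, again without a share of all genes at that threshold. Without overlap, 5 were higher and 0 lower, beside 28% and 21.1% of all genes. The median difference was 0.53 over the 6 members measured in both groups and also over all 7 tested members, against 0.06 for all genes tested. With the slide as a block 0 members were called, with Prss34 at 0.53 (adjusted p = 0.252), Mcpt8 at 0.39 (adjusted p = 0.347), Mcpt1 at 0.44 (adjusted p = 0.156) and Kit at 0.40 (adjusted p = 0.151), and no slide holds arrays of both groups. With normexp background correction only Kit was called, and Mcpt1 differed by 0.05. Of the low Se non-GD arrays, leaving out replicate 2 (0.46, adjusted p = 0.0618) or replicate 3 (0.52, adjusted p = 0.0664) lost the call of Kit, and leaving out replicate 1 gave one to Cpa3 (0.62, adjusted p = 0.0373). Mcpt1 kept its call without normal Se GD replicate 3, low Se GD replicate 1 or low Se GD replicate 3, and lost it without any of the other 6 arrays (0.43 to 0.56, adjusted p = 0.0669 to 0.121). All 3 comparisons draw on the same 9 arrays, and each group serves in 2 of them.

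Mcpt1, Mcpt4 and Mcpt8 sit in a run of 15 protein-coding genes on chromosome 14 that reaches, in the order of the RefSeq annotation, from Cma1 to Gzmb and also holds Cma2, Mcpt2, Mcpt9, Ctsg and a row of granzymes. These proteases are close relatives, and cross-hybridisation between them was not tested. In the disease comparison 3 of the 12 tested genes of the run fell, where 12.2% of all genes did, and 1 rose, where 12.8% did. Mcpt2, a mucosal chymase next to Mcpt1, had the largest difference of the run, at -3.26, -3.16 and -3.39 in low Se GD against 0.29, 0.30 and 0.33 in low Se non-GD, a log2 difference of -3.58 (SE 0.25, adjusted p = 0.00028 in limma). Its low Se non-GD arrays were nearly level and far above every diseased one, with normal Se GD at -2.50, -2.96 and -3.62. Gzmb, the killer cell protease at the other end of the run, rose by 1.42 (SE 0.37, adjusted p = 0.0264), with -1.61 ± 0.42 in low Se GD and -3.03 ± 0.20 in low Se non-GD. Genes of the run thus fell and rose in the same comparison, and Mcpt8 did not pass. In the selenium comparison 1 of the 12, Mcpt1, was called, beside 1.27% of all genes, while Mcpt2 differed by 0.24 (adjusted p = 0.637). In the combined comparison 4 rose and 1 fell, beside 18.9% and 13.4% of all genes. Mcpt1, Mcpt8, Gzmb (2.17) and Ctsg (1.22), the cathepsin of neutrophil and mast cell granules, were higher, and Mcpt2 was lower (-3.34).

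**Figure D4:**
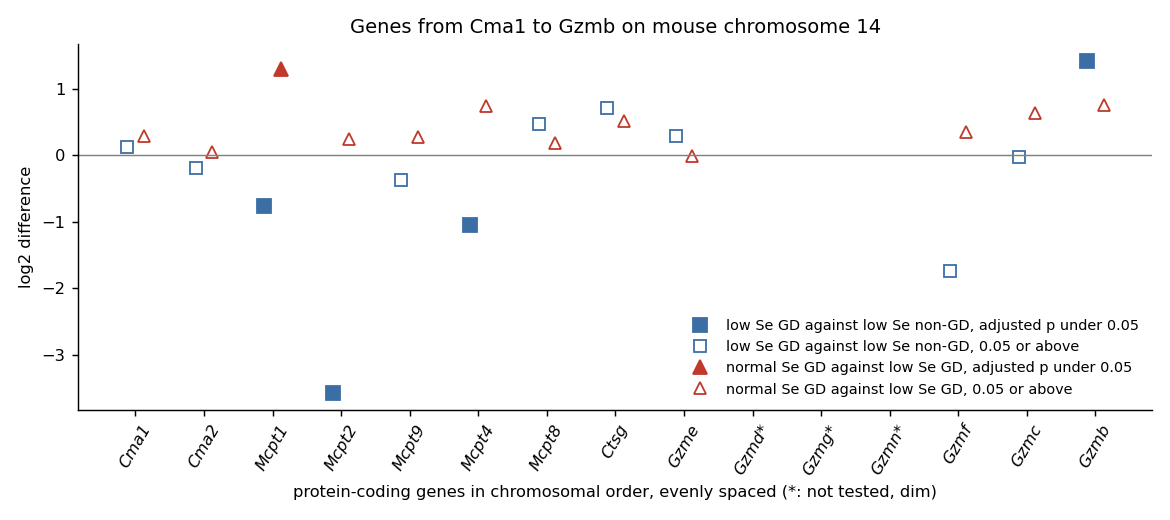
Log2 differences of the protein-coding genes from Cma1 to Gzmb on mouse chromosome 14, in chromosomal order and evenly spaced, as squares for the disease comparison and triangles for the selenium comparison, filled where the adjusted p was under 0.05. Mcpt2 (-3.58), Mcpt4 (-1.06), Mcpt1 (-0.76) and Gzmb (1.42) are filled squares, and Mcpt1 (1.29) is the one filled triangle.

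Beyond the members, 5 lists of genes from the same pathways held 58 tested genes. In the disease comparison 12 of the 58 rose and 4 fell, in the selenium comparison 0 were called (12 higher and 3 lower at an unadjusted p under 0.05 in limma), and in the combined comparison 21 rose and 2 fell. Over all genes 12.8% rose and 12.2% fell in the disease comparison, and 18.9% rose and 13.4% fell in the combined comparison. The genes that rose include Mrgprb1, Mrgprb2 and Gab2 in both of these comparisons and Il6 in the combined one. No low Se non-GD array measured these genes, so they passed the filter through diseased arrays alone and could hardly have been called lower. The median difference of the genes measured in both groups was 0.21 over 53 genes in the disease comparison, 0.22 over 58 in the selenium comparison and 0.21 over 53 in the combined comparison. Of the other granule genes, 12 tested, most did not pass in the disease comparison: only Gzmb rose and only Mcpt2 fell. The chymase Cma2, measured on every array, did not pass in the selenium comparison (0.05, adjusted p = 0.885 in limma) or in the disease comparison (-0.19, adjusted p = 0.426). The dim Mcpt9 did not pass in the disease comparison either (-0.37, adjusted p = 0.719). The tryptase Tpsb2 (0.29, adjusted p = 0.637) and the histamine-forming enzyme Hdc (0.12, interval -0.39 to 0.63, adjusted p = 0.745) did not pass there, and the chymase Cma1 was measured on no low Se non-GD array. On its brighter probe Tpsb2 was highest in low Se GD, unlike Cpa3, Mcpt1 and Mcpt4. It stood at -1.17, -1.14 and -2.73 in normal Se GD, at -0.87, -0.97 and -0.98 in low Se GD, and at -1.09, -1.36 and -1.23 in low Se non-GD. The low Se GD values of this probe lay above all others, and its selenium difference of -0.74 did not pass (adjusted p = 0.342). A second probe differed by -0.11 in the disease comparison, the other direction, and by -0.39 in the selenium comparison, neither of them called. Hs3st1, a heparan sulphate sulphotransferase (0.79, adjusted p = 0.131), and Slc18a2, which loads histamine into granules (-0.17, adjusted p = 0.538; a second probe fell by 0.79 in the combined comparison), did not pass either, the tryptase Tpsg1 was well above background on 0 arrays, and Tpsab1 was not analysed here. In the combined comparison 4 of the 12 rose and 1 fell. Srgn, the core protein of granule proteoglycan, rose by 0.49 (adjusted p = 0.0261) and Ndst2, which sulphates mast cell heparin, by 0.34 (adjusted p = 0.0478).

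Among receptors and regulators, 17 tested, Gata2 had the largest fall among the genes called in the disease comparison. Cd200r3 differed by -1.76 without passing (adjusted p = 0.164). Its low Se non-GD values ran from -5.11 to -1.61 with a median of -4.87, so the highest array drew up their mean. Gata2 encodes a transcription factor that mast cells and basophils need, and it is also active in blood stem cells and endothelium. It stood at -1.69, -1.86 and -2.0 in normal Se GD, at -1.78, -1.80 and -2.01 in low Se GD, and at -0.13, -0.46 and -0.31 in low Se non-GD. The diseased groups were level with each other and far below low Se non-GD, a difference of -1.57 (SE 0.13, adjusted p = 0.000528) for low Se GD and -1.56 (SE 0.13, adjusted p = 0.000439) for normal Se GD. Fcer1g, the gamma chain, rose by 0.64 (SE 0.15, adjusted p = 0.0203) in low Se GD and by 1.12 (SE 0.15, adjusted p = 0.00187) in normal Se GD, each against low Se non-GD. It stood at 2.29, 2.34 and 2.63 in normal Se GD, at 1.76, 1.92 and 2.14 in low Se GD, and at 1.5, 1.11 and 1.29 in low Se non-GD, and monocytes, neutrophils and killer cells use this chain too. In the list as a whole 5 genes rose and 2 fell in the disease comparison, beside 12.8% and 12.2% of all genes. The others called were Cebpa (0.75) and Mitf (0.49, with a second probe that was not called), Mrgprb1 and Mrgprb2, which no low Se non-GD array measured, and Csf2rb2 (-0.56, its other probe lying at 0.78 with an adjusted p of 0.475), a signal-passing chain of the interleukin-3 receptor. Il1rl1, the interleukin-33 receptor of mast cells and basophils, did not pass in any comparison, with 0.29 (adjusted p = 0.527) for the disease comparison and -1.15 (adjusted p = 0.0973) for the selenium comparison on its brightest probe.

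Of 15 genes that carry signals of the IgE receptor and of Kit, 4 rose and 1 fell in the disease comparison. Over all genes 12.8% rose and 12.2% fell there. Kitl, stem cell factor, the ligand of Kit, stood at -1.28, -1.25 and -1.16 in normal Se GD, at -1.59, -1.69 and -1.69 in low Se GD, and at -2.15, -2.34 and -2.30 in low Se non-GD. The 3 groups were separate and narrow, with differences from low Se non-GD of 0.61 (SE 0.09, adjusted p = 0.00369) in low Se GD and 1.04 (SE 0.09, adjusted p = 0.000508) in normal Se GD. Lcp2, an adaptor below the IgE receptor, rose by 0.79 (adjusted p = 0.0254), Inpp5d, a phosphatase that restrains degranulation, by 0.43 (adjusted p = 0.0278), and Btk, a kinase of B cells and mast cells, fell by 0.51 (adjusted p = 0.0324). Gab2 was called at least 1.19-fold higher against a group in which no array measured it. In the combined comparison 4 of the 15 rose and 0 fell, beside 18.9% and 13.4% of all genes. The kinase Fyn was among those that rose (0.71, adjusted p = 0.00925). The kinases Lyn (0.25) and Syk (0.16) had adjusted p-values of 0.318 and 0.304 in the disease comparison. These counts depend on the probe chosen. With every probe tested in limma, a second probe of Vav1 fell in the disease comparison (-0.83, adjusted p = 0.00901). Second probes of Grb2 (0.63, adjusted p = 0.00292) and Pik3cd (0.60, adjusted p = 0.00783) rose in the combined comparison. The brightest probes of these genes were not called.

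Of the products, Ltc4s, which makes leukotriene C4 in mast cells, basophils and eosinophils, rose by 0.89 (SE 0.14, adjusted p = 0.00437) in low Se GD and by 0.82 (SE 0.14, adjusted p = 0.00443) in normal Se GD, each against low Se non-GD. Alox5ap, which presents arachidonic acid for leukotriene synthesis, rose by 0.52 (adjusted p = 0.0176) and 0.94 (adjusted p = 0.00157) in the same comparisons. These were 2 of 7 tested eicosanoid genes in the first of them, and Pla2g4a, which frees arachidonic acid, was the third of those called in the second (0.76, adjusted p = 0.00899). Over all genes 12.8% rose in the disease comparison and 18.9% in the combined one. Of 11 ligands and cytokines of type 2 immunity 7 were tested and 0 were called in the disease comparison (2 higher and 1 lower at an unadjusted p under 0.05 in limma). In the combined comparison 3 were called, among them Il4 (0.59, adjusted p = 0.00221), a cytokine that basophils and T helper cells release, Il18 (0.66, adjusted p = 0.00894), and Il6, which no low Se non-GD array measured.

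Markers of other cells moved in the same comparisons, and their part in the members' differences was not tested. Over all genes 12.8% rose and 12.2% fell in the disease comparison. Of 8 eosinophil markers, cells that share genes with basophils, 5 rose and 1 fell in the disease comparison, and their mean level lay between -1.76 and -1.58 in normal Se GD, between -1.88 and -1.59 in low Se GD, and between -2.49 and -2.18 in low Se non-GD. Prg3 (1.02), Ear1 (1.01), Ear2 (1.05) and Ccr3 (1.42) rose, Il5ra fell (-0.73), and the defining peroxidase Epx was measured on no low Se non-GD array. Of 8 blood progenitor markers 3 rose, Myb (0.83), Flt3 (0.70) and Ly6a (1.45), and Cd34 fell (-1.29) on the brighter of its 2 probes, the other being at 0.03 (adjusted p = 0.936), beside Kit, which is also on this list. Of 11 neutrophil markers 2 rose and 1 fell, Prtn3 (1.0) and Elane (0.86) being higher and Camp lower (-0.43). Second probes of Flt3 (0.34), Camp (-0.48) and Adgre1 (0.90), the last a macrophage marker, had the same sign and were not called. Of 9 erythroid precursor markers 0 were called (1 higher at an unadjusted p under 0.05 in limma).

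Fat cell markers had their highest mean level in low Se GD, the group in which Cpa3, Mcpt1 and Mcpt4 were lowest. The mean level over 8 genes lay between -3.90 and -3.70 in normal Se GD, between -1.95 and 0.11 in low Se GD, and between -4.32 and -2.13 in low Se non-GD. Lep, the gene of the hormone leptin, was well above background on none of the 9 arrays. In the disease comparison 4 of 7 tested markers rose, Fabp4 (3.91), Adipoq (3.51), Cidec (2.26) and Plin1, which no low Se non-GD array measured, and in the selenium comparison 1 fell, Adipoq (-5.59, adjusted p = 0.0448), with 6 lower at an unadjusted p under 0.05. Connective tissue markers, a tissue in which mast cells live, had medians of -0.03 in the disease comparison and 0.24 in the selenium comparison, with Pdgfra higher (1.32) and Acta2 lower (-0.52) in the first and 0 called in the second (1 higher at an unadjusted p under 0.05 in limma). Erythroid precursor markers had a median of -1.02 in the selenium comparison, with 0 of 9 called and 5 lower at an unadjusted p under 0.05 in limma. In the disease comparison 2 of 7 platelet markers rose, Ppbp (1.19) and Pf4 (0.62), and 0 fell. Of 6 exocrine pancreas markers 1 fell, Pnlip (-3.24), and 0 rose. Of 10 spleen lymphocyte and macrophage markers 3 rose, Klrb1c (1.80), Adgre1 (1.37) and Vcam1 (1.02), and 0 fell.

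Across the 9 arrays, the genes whose profile was most like that of each member were found by Pearson's r among 17505 other genes with a symbol. The points share their arrays, slides and groups, so the values are a description. Cpa3 was most like Gpx8 (r = 0.97) and Anxa3 (r = 0.97), Mcpt1 like Brwd3 (r = 0.97) and Col23a1 (r = 0.96), and Mcpt4 like Serpina3i (r = 0.98) and Rps15a-ps6 (r = 0.97). Mcpt8 was most like Gp5 (r = 0.99) and Mapk3 (r = 0.99), Kit like Pcnp (r = 0.99) and Scamp1 (r = 0.99), and Prss34 like Desi1 (r = 0.99) and Ranbp2 (r = 0.99). No member was among the 3 genes most like another member.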

How the data were processed

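Spleen RNA of 9 samples had been hybridised to Agilent 1-colour arrays (design 026655), per the labels' protocols. Per the file headers, the deposited intensity values come from Agilent Feature Extraction version 11.0.1.1, after background subtraction and spatial detrending but no scaling between arrays. The other deposited columns hold 0 or 1 marks for well above background, saturation (0 spots) and outliers. The authors' deposited table of log2 values was used as an alternative only, since how it was made is not stated. Of its 9 columns, 3, all of low Se non-GD, matched another array of their group best, which leaves the numbering within that group uncertain.

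Processed signals were taken as log2 and centred on the array's 75th percentile over 43020 non-control spots. Outlier spots were left out only afterwards, when the spots of a probe were averaged. RefSeq accessions (GRCm38.p6) named 27234 of 39429 probes. Probe coordinates are not given because the array's annotation is of another build. The brightest probe stood for a gene, genes measured on fewer than 3 arrays were left out (6078), as were 48 with a marked spot, and 26325 entered the limma fit (version 3.58.1, R 4.3.3; lmFit, eBayes, all 9 arrays, Benjamini-Hochberg over all genes, threshold 0.05, 2-sided). Intervals are 95% intervals of the fit, which was tested on simulated data. "At least" folds set the brighter group's mean against the lowest signal well above background. Alternatives were quantile normalization, normexp (offset 50, on median signals because no mean signal is given), the deposited table, the filter, the mean of probes, the groups in the fit, slide and replicate blocks, and leaving out each array. The genes to be named were all members, the other granule genes, per list and comparison up to 4 called genes with the largest differences, and the genes most like each member. Mitf, Il1rl1, Csf2rb2, Cd200r3, Lyn, Syk, Vav1, Grb2, Pik3cd, Inpp5d, Epx, Il5ra and Lep, outside that rule, were chosen after their values were seen. Members and lists were chosen with earlier results of these data known. The precision is limited by 3 arrays per group.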

Additional observations from a re-analysis of the deposited data

How the results depend on the processing

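The number of arrays and dim signals limit these results: Ms4a2 was measured on no array, Fcer1a on 4, and Mcpt1 on 7 of 9, and calls close to the threshold turned with single arrays. Over 9 same-numbered pairs the correlation of deviations lay between -0.213 and 0.0991, with 0 over 0.1. The numbering within low Se non-GD is uncertain, however, and some pairs of unlike number were higher. Low Se GD replicate 3 with low Se non-GD replicate 1 reached 0.236, and low Se GD replicate 1 with low Se non-GD replicate 2 reached 0.225. Whether the samples were paired therefore cannot be decided, and the replicate block rests on the same uncertain numbers. With the replicate block, 0 members were called in the selenium comparison (Cpa3 and Mcpt1 adjusted p = 0.156) and 3 instead of 4 in the combined comparison, and 1 higher and 2 lower as before in the disease comparison.

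In the disease comparison, where 1 member was higher and 2 lower, 2 were higher with quantile normalization and with genes measured on all 9 arrays (then 1 lower), 0 higher and 1 lower with normexp, 0 higher with the slide as a block, and 0 higher and 0 lower within slide 1. Leaving out single arrays gave 0 to 3 higher and 1 to 3 lower. Tested as probes without a filter, 1 was higher and 2 lower, 0 and 1 with normexp, and 0 to 1 and 1 to 2 without single arrays. In the selenium comparison, where 2 members were higher, 1 was higher with quantile normalization and with the slide as a block, 0 with normexp, with the authors' deposited table, without the filter and with only the 2 groups compared, 3 within slide 2, and 0 to 2 without single arrays. As probes, 0 were higher, and 0 to 1 without single arrays. The low values go with few calls over all genes: 257 higher and 77 lower as reported, 32 and 14 with quantile normalization, 2 and 1 with the deposited table, and 0 and 0 with normexp, without the filter, with only the 2 groups and with the replicate block, against 1243 and 470 with the slide as a block, 933 and 355 with genes measured on all 9 arrays, 1529 and 1265 within slide 2 and 760 and 316 without normal Se GD replicate 3. In the combined comparison, where 4 were higher, 1 was higher with normexp, 2 with only the 2 groups, 0 with the slide as a block and 2 to 4 without single arrays. As probes, 3 were higher, 1 with normexp and 0 to 4 without single arrays. A comparison within a slide is not possible there, since no slide holds both groups. The cause of these shifts was not tested.

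The reported difference of Prss34 in the selenium comparison was 0.01, and it turned to -0.0804 with quantile normalization, -0.0644 with the deposited table, -0.23 with the slide as a block and within slide 2, and to -0.16 without normal Se GD replicate 3, -0.0648 without low Se GD replicate 1 and -0.033 without low Se GD replicate 2. Leaving out single arrays gave -0.16 to 0.14. Of the other member differences recomputed none changed sign. Those of Fcer1a against low Se non-GD and those of Ms4a2 were not recomputed. The median difference of all genes in the disease comparison was 0.08 as reported, -0.16 with normexp and 0.13 with quantile normalization, and in the selenium comparison 0.00 as reported, 0.16 with normexp and 0.12 with the slide as a block. With normexp 2248 genes were called higher and 3254 lower in the disease comparison, against 3357 and 3199 as reported.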
